A study of Mus musculus with 6 samples.

Results

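The genes described here code for Nodal, its antagonists Lefty1 and Lefty2, their receptors and the regulators of their signal, a branch of the TGF-beta superfamily. Members were chosen by name, 10 genes in all, and their target peaks were those whose midpoint lay within the gene span annotated by RefSeq on GRCm38, the assembly that mm10 denotes. Of the 3292 target peaks listed for the series, 22 lay in these genes, and each of the 10 genes had at least 1. The list of members was drawn up with the peaks known, so that finding a peak in every member says nothing about the family.

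AGO2 is the Argonaute protein that microRNAs (miRNAs) guide to their target RNAs. All 6 libraries came from 1 line of mouse embryonic stem cells with the genotype Spy3-Ago2, in which AGO2 carries a tag that SpyCatcher3 binds, grown in serum with LIF, a cytokine that keeps the cells undifferentiated. The libraries form 3 groups of 2 replicates: target RNA held by Spy3-AGO2, miRNA held by Spy3-AGO2, and input RNA from whole lysate. There was no untagged or knockout group, and no label states if replicates were grown as separate cultures, so their spread may be technical. The peaks are 1 list for the whole series, with position and strand but no height, count or value per replicate. No spread and no test could therefore be given for any peak, and the counts below are descriptions. The use made of input is not stated in the sources used here.

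Peaks also lay in 8 of 12 genes listed as markers of pluripotent stem cells (Nanog, Sox2, Klf4, Esrrb, Zfp42, Tet1, Fgf4 and Tfcp2l1) and in 0 of 10 listed for fibroblast, endoderm, mesoderm or neural cells. Pou5f1, a defining factor of these cells, had none, so a gene without a peak is not a gene without RNA. The background for such counts is 8.3% of 21887 nuclear protein-coding genes with at least 1 peak midpoint. Both marker lists were chosen with earlier results of these data known, so their counts are no test of cell identity. A list of 10 genes is also too short for a count of 0 to differ from this background.

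Nodal is a secreted ligand that binds a type I and a type II activin receptor together with the co-receptor Cripto, the product of Tdgf1. The receptors phosphorylate SMAD2 and SMAD3, which enter the nucleus with SMAD4 and switch on target genes, among them Nodal itself and the Lefty genes. Lefty proteins block Nodal outside the cell, SMAD7 blocks the receptors inside it, and SKI and SNON, the product of Skil, hold SMAD complexes in a repressed state. In zebrafish embryos, miR-430 represses both a Nodal ligand and a Lefty gene, and in human embryonic stem cells miR-302 represses LEFTY genes. These miRNAs have the same seed, the bases near the 5′ end that pair with the target, as the stem cell miRNA miR-291a-3p.

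The miRNAs of that seed family that were named in both the counts and the RefSeq table are shown because of this known link to Lefty and Nodal. The sequences are those of RefSeq for GRCm38.p6, written 5′ to 3′ with the seed, bases 2 to 8, in capitals.
miR-291a-3p: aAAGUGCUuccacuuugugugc
miR-294-3p: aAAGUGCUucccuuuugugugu
miR-295-3p: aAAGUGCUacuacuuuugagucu
miR-302b-3p: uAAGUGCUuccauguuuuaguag
miR-302d-3p: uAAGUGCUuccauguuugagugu
The 5 sequences are identical over the seed and differ most in their 3′ part. In the miRNA libraries, with 12562727 counts in replicate 1 and 22908172 in replicate 2, the family's share was 5.36% in replicate 1, with a 95% Wilson interval from 5.35 to 5.37, and 6.51% in replicate 2, with one from 6.5 to 6.52, a mean of 5.94% ± 0.81 (SD, n = 2). The intervals cover counting error only, and the replicates lay further apart than the intervals reach. miR-291a-3p gave 2.89% ± 0.68 and miR-295-3p 2.51% ± 0.18 of the counts (SD, n = 2). miR-294-3p gave 0.518% ± 0.046, while miR-302b-3p and miR-302d-3p stood at 0.00684% ± 0.00053 and 0.00561% ± 0.00039 (SD, n = 2). Of the counts of these 5 miRNAs, nearly all thus came from the miR-290/miR-295 cluster on chromosome 7. Almost none came from the 2 miRNAs of the miR-302 cluster on chromosome 3. RefSeq named 1679 of the 1978 miRNAs counted, so other miRNAs with this seed, of either cluster, may be missing from these shares.

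A second pair of families is shown for its links to receptors and SMAD7. The miR-15/miR-16 family represses an activin type II receptor in Xenopus embryos, and miR-21 is known to repress SMAD7 in human and mouse cells.
miR-16-5p: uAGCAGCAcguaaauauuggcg
miR-195a-5p: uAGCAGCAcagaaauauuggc
miR-15b-5p: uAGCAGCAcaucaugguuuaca
miR-21a-5p: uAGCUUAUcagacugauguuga
The first 3 have 1 seed in common. The miR-16-5p seed family held 5.96% of replicate 1 and 5.01% of replicate 2, a mean of 5.49% ± 0.67 (SD, n = 2). The miR-21a-5p seed held 0.0835% and 0.0821%. The miR-16 and miR-291a-3p families differed by less than the SD of either, and replicate 1 had more of the miR-16 family and replicate 2 more of the miR-291a-3p family. The miR-21a-5p seed lay far below both in each replicate. The letters under the peaks were not read here, so no peak below is tied to any of these miRNAs.

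**Figure D1:**
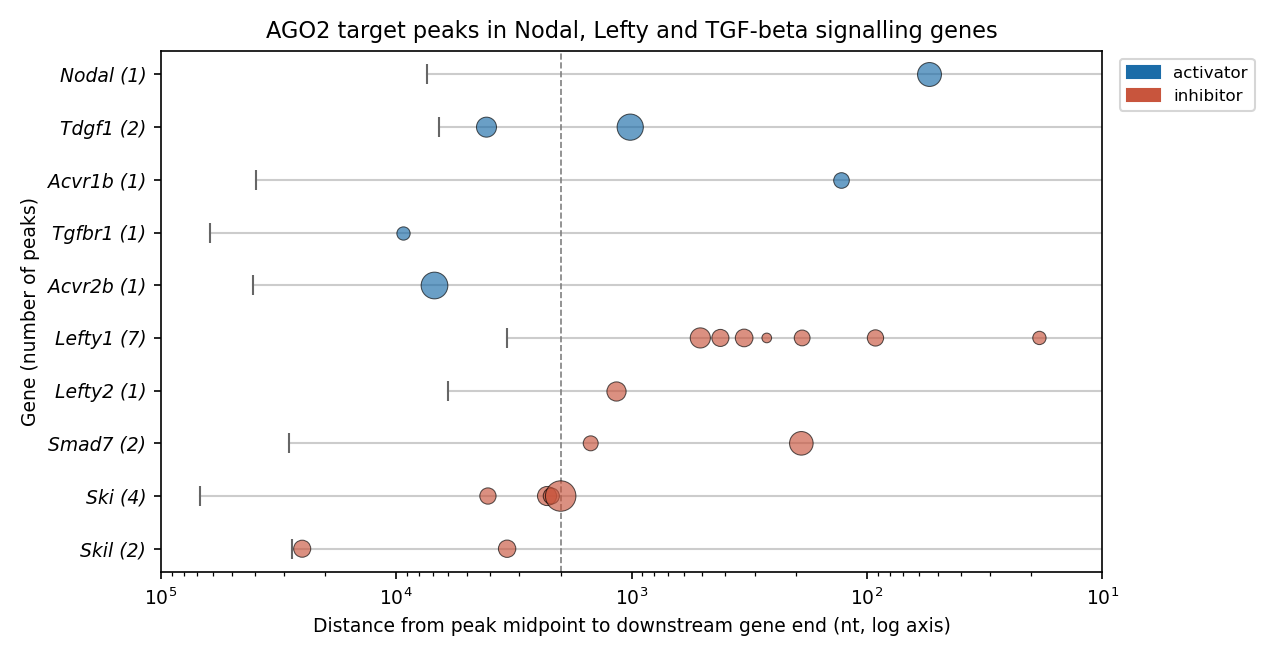
Distance from each peak midpoint to the downstream end of its gene, on a log axis, for the 5 activators and the 5 inhibitors of the pathway. Circle area is proportional to peak width, the tick on each line marks the upstream end of the gene span, and the dashed line marks 2000 nt; Lefty1 has 7 peaks, the outermost midpoint 510.5 nt from the end, and no other gene has more than 4.

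Among the activators, the ligand gene Nodal had 1 peak at its very end. It lay at chr10:61425229-61425338 on the plus strand, 110 nt wide, with its midpoint 54.5 nt from the downstream end of a 7367 nt span. The co-receptor gene Tdgf1 had 2 peaks on the minus strand. The peak nearer the end, chr9:110940556-110940687, was 132 nt wide and 1013.5 nt from it, and the other, chr9:110943706-110943782, was 77 nt wide and 4136 nt from it. Tdgf1 is short, with a span of 6551 nt, and its second peak lay 36.9% of the way along the gene, in the upstream part.

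The 3 receptor genes had 1 peak each. Acvr1b, which codes for the type I receptor ALK4 that Nodal and activin use, had a 47 nt peak at chr15:101213532-101213578, 129 nt from the end of a 39613 nt span. Acvr2b, which codes for a type II receptor, had the widest activator peak, 137 nt at chr9:119435142-119435278, 6938 nt from the end. Tgfbr1, which codes for the type I receptor ALK5 that binds TGF-beta ligands, had the narrowest, 34 nt at chr4:47405530-47405563 and 9379.5 nt from the end. The receptor peaks thus fell into a terminal one and 2 that lay deeper in the gene, at 82.9% and 84.8% of the span.

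Among the inhibitors, Lefty1 had the most peaks, 7, a number that 2.2% of the genes with any peak reached. They lay on the plus strand of chromosome 1 within a stretch of 548 nt that ended 2 nt before the annotated end of the gene. From upstream to downstream their widths were 78, 56, 60, 18, 48, 51 and 34 nt, and their midpoints lay 510.5, 419.5, 332.5, 266.5, 188.5, 92 and 18.5 nt from the end. The outermost ones were chr1:180937852-180937929 and chr1:180938366-180938399. Neighbouring midpoints were 66 to 96.5 nt apart, with a median of 82.5 nt, and the gaps between peak edges were 24 to 47 nt. The peaks covered 345 of the 548 nt, or 63%, so the array is close to a single occupied stretch with short breaks. The smallest gap between any same-strand neighbours in the whole list was 21 nt, and where 1 occupied stretch was divided into peaks is set by a caller not named in the sources used here.

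Lefty2, the neighbouring gene, had 1 peak. It lay at chr1:180897911-180897981, 71 nt wide and 1161 nt from the end of a 6000 nt span, further from the end than any Lefty1 peak. The gene spans of Lefty2 and Lefty1 are 35914 nt apart on the same chromosome. Between the number of the Lefty2 peak and that of the first Lefty1 peak lie 12 peak numbers, and whether any of these is listed was not checked. The 2 genes are similar in sequence, and the sources used here do not state what was done with reads that match both, so the division of 1 and 7 peaks between Lefty2 and Lefty1 is uncertain.

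Smad7, the inhibitory SMAD that blocks type I receptors, had 2 peaks near its end. They were a 43 nt peak at chr18:75394422-75394464, 1492 nt from the end, and a 107 nt peak at chr18:75395692-75395798, 190 nt from it. The midpoints lay 1302 nt apart.

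The co-repressor genes Ski and Skil had no peak within 2000 nt of their ends. Ski, on the minus strand of chromosome 4, had 4 peaks 2001.5, 2193.5, 2287.5 and 4078 nt from the end. Their widths in that order were 178, 50, 70 and 51 nt. The first of them, chr4:155155988-155156165, was the widest peak of all 10 genes, and the first 3 formed a group with gaps of 78 and 34 nt. Skil had 2 peaks of almost equal width far apart, 58 nt at chr3:31119514-31119571 and 56 nt at chr3:31097795-31097850. They lay 3380.5 and 25100.5 nt from the end, so that the second was near the start of the gene, 2764.5 nt from its upstream end.

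**Figure D2:**
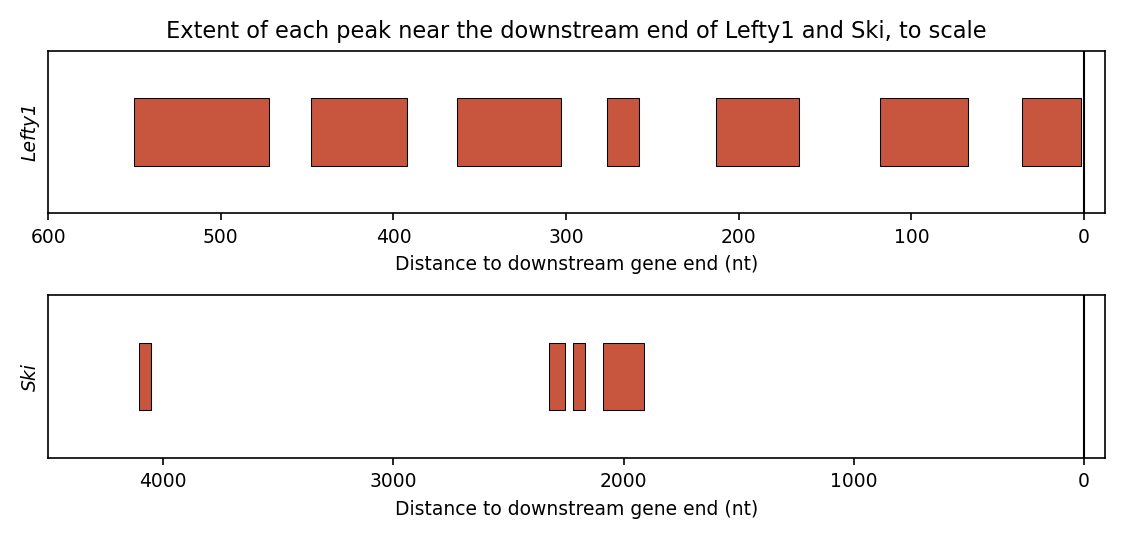
Peaks of Lefty1 (top) and Ski (bottom) drawn to scale against distance in nt from the downstream gene end at 0, each bar spanning 1 peak. Lefty1 peaks follow each other with gaps of 24 to 47 nt up to the end, whereas Ski peaks start 1913 nt from it.

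All peaks of a member lay on 1 strand, which could fail only in the 5 members with at least 2 peaks. The same held in all 94 genes of the series with at least 5 peaks. The RefSeq promoter table gave a strand for 6 members (Nodal, Tdgf1, Acvr1b, Tgfbr1, Acvr2b and Ski), and in 6 of 6 it was the strand of the peaks. No member peak midpoint lay in a second annotated gene, and extending the spans by 5000 nt at both ends added no peak.

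The 5 activators held 6 peaks and the 5 inhibitors 16. At least 2 peaks were found in 1 of 5 activators, Tdgf1, and in 4 of 5 inhibitors, all except Lefty2. Of the genes with any peak in the series, 34.6% had at least 2. The members were chosen with their peaks known, so comparisons of the 2 classes, here and below, are descriptions and no test. The same holds for the comparison with 34.6%. The higher count of the inhibitors rested largely on Lefty1. Without it, 4 inhibitors held 9 peaks. With peaks under 50 nt apart merged, all 5 inhibitors held 9. Lefty1 then held 1, so it was no longer among the inhibitors with at least 2. Set against length, the genes of the 2 classes were mixed in order, though the classes still differed as wholes. Over their summed spans, the activators had 0.385 peaks per 10000 nt and the inhibitors 1.19, or 0.688 without Lefty1. Peaks per 10000 nt of gene span were 3.05 in Tdgf1 among the activators, with Nodal next after it, but 0.252 in Acvr1b, 0.247 in Acvr2b and 0.162 in Tgfbr1, the long receptor genes. Among the inhibitors they were 20.7 in Lefty1, 1.67 in Lefty2, 0.718 in Skil, 0.7 in Smad7 and 0.584 in Ski. The median of this density over the 1817 genes with a peak was 0.396, with quartiles of 0.17 and 1.02. All 5 inhibitors, Tdgf1 and Nodal lay above this median, and the receptor genes lay below it. Of these genes 12 were denser than Lefty1, 8.15% were denser than Tdgf1, 18.7% than Nodal, and 76.3% were denser than Tgfbr1. Gene span counts introns and is not transcript length, and the level of each RNA was not measured here, so the counts cannot be read as occupancy per molecule.

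Widths went the other way from counts. Activator peaks had widths from 34 to 137 nt with a median of 93.5 nt, and inhibitor peaks from 18 to 178 nt with a median of 56 nt, or 58 nt without Lefty1. At least 100 nt were reached by 3 of 6 activator peaks (Nodal, Tdgf1 and Acvr2b) and by 2 of 16 inhibitor peaks (Smad7 and Ski), against 17.4% of 3070 peaks in exactly 1 nuclear protein-coding gene. Over all 22 member peaks the median width was 57 nt, against 59 nt for 3048 peaks in other genes. The widths of both classes overlap over most of their range, and the difference between the classes was not tested.

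Distance to the downstream end split each class. Within 2000 nt lay 3 of 6 activator peaks and 10 of 16 inhibitor peaks, 13 of 22 (59.1%) in all, where the background was 35.9%. Without Lefty1 the share was 6 of 15 (40%), near that background. By gene, 3 activators (Nodal, Tdgf1 and Acvr1b) and 3 inhibitors (Lefty1, Lefty2 and Smad7) had a peak in this window, 6 of 10, against 46% of the genes with peaks. The threshold fell between a Smad7 peak at 1492 nt and a Ski peak at 2001.5 nt, whose near edge was at 1913 nt. The median distance was 1087.25 nt for the 22 member peaks and 3966 nt for peaks in other genes, and it was 2193.5 nt without Lefty1. The last 10% of the span held 13 member peaks (59.1%), against 41.5% of the 3070 peaks, but they were not the same 13: the 4 Ski peaks are in it because that gene is long, and 2 Lefty1 peaks, the Lefty2 peak and a Tdgf1 peak are outside it because those genes are short.

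**Figure D3:**
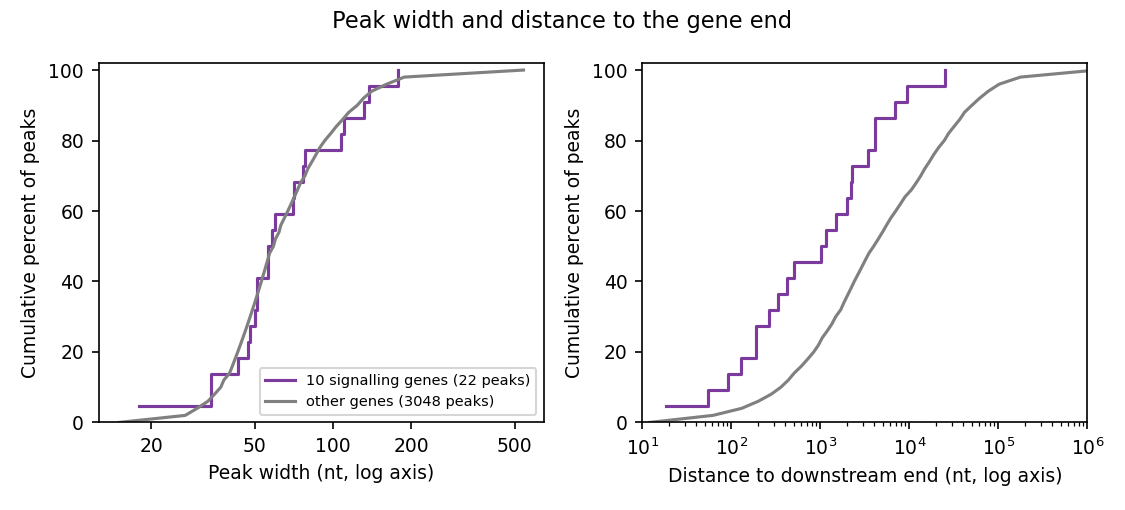
Cumulative percent of peaks by width (left) and by distance to the downstream gene end (right), both in nt on log axes, for the 22 peaks of the signalling genes and 3048 peaks in other genes. The width curves lie on each other, with medians of 57 and 59 nt. The distance curve of the signalling genes lies to the left, with medians of 1087.25 and 3966 nt. Of its 22 peaks, 7 are those of Lefty1, and without them the median is 2193.5 nt.

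Close spacing among the members lay mostly in Lefty1, though 1 Ski pair, 94 nt apart, was within the Lefty1 range of 66 to 96.5 nt. The members gave 12 pairs of neighbouring peaks, with a median spacing of 95.25 nt, against 1550.5 nt for 1341 pairs in other genes. These spacings are genomic distances that count introns, not distances along the transcript. Without Lefty1 the median of the remaining 6 pairs was 1546.25 nt. Under 100 nt lay 7 of 12 member pairs, 6 of them in Lefty1 and 1 in Ski, where the background was 10.1%. The other pairs ranged from 192 nt in Ski to 21720 nt in Skil.

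Peak numbers in the list rise along each strand of each chromosome up to 30438, and 10.8% of them are present, so a missing number would mark a peak that was numbered and not listed. All 6 pairs of Lefty1 neighbours had consecutive numbers, and so had 2 of 3 pairs in Ski. In the remaining pairs, numbers were missing between the peaks: 4 in Tdgf1, 4 in Ski, 5 in Smad7 and 6 in Skil. Of all neighbouring pairs within a gene, 35.8% were consecutive. No number is thus missing within the Lefty1 array, whereas 4 to 6 are missing between the peaks of Tdgf1, Smad7 and Skil. The gaps in Lefty1, 24 to 47 nt, leave little room for a further peak, while those in Tdgf1, Smad7 and Skil are 3018, 1227 and 21663 nt. Consecutive numbers in Lefty1 therefore add little to its short spacing. The sources used here do not state on what grounds numbers were left out.

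Among the 94 genes with at least 5 peaks, the distance from the first to the last peak midpoint had a median of 18453 nt. It was 492 nt in Lefty1, the second shortest. Klf2, which codes for a Krüppel-like transcription factor of the pluripotency network, was closest to it, with 5 peaks over 488.5 nt. Txnip, which codes for a thioredoxin-binding protein, followed with 8 peaks over 743.5 nt, Sik1, a kinase gene, with 6 over 944.5 nt, Tubb4b, a tubulin gene, with 5 over 1606.5 nt, and Zfp266, a zinc finger gene, with 5 over 1839 nt. Lefty1, Klf2 and Txnip were the 3 genes of the 94 whose peaks all had consecutive numbers, and also the 3 whose peaks all lay within 1000 nt of the downstream end. Lefty1 was the only one of the 94 with every spacing under 100 nt. The SD of its spacings was 14% of their mean, against 4.62% in Klf2, 31.1% in Txnip and a median of 110% over the 94 genes. Among these 94 genes the array ranked second in evenness after Klf2, which had wider steps of 115.5 to 129 nt. Extent and spacing are genomic distances that count introns, so they are not distances along the transcript. Evenness is also not separate from short extent here: Klf2, Lefty1 and Txnip ranked 1, 2 and 3 in both. Measured over whole genes, this ranking leaves out similar runs within larger sets. Fgf4, a growth factor gene of these cells that was named after its values were seen, has such a run. Of its 11 peaks, 7 with consecutive numbers lay 33.5 to 556.5 nt from the end, over 523 nt, with spacings of 57.5 to 106.5 nt. Runs of at least 7 consecutive numbers occurred in 3 of the 94 genes, Lefty1, Fgf4 and Txnip.

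**Figure D4:**
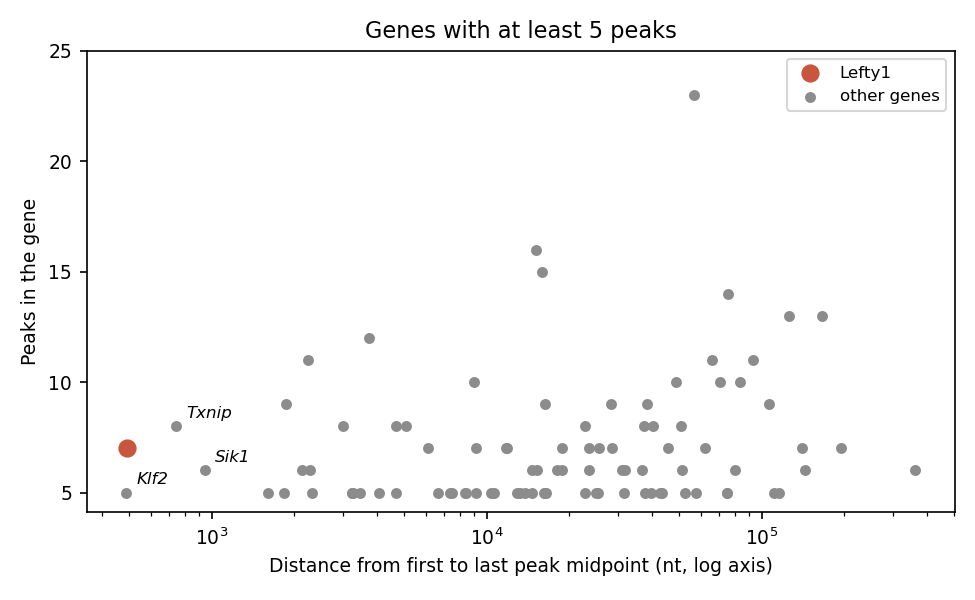
Number of peaks against the distance in nt from the first to the last peak midpoint (log axis) for the 94 genes with at least 5 peaks, each point 1 gene. Lefty1 lies at 492 nt with 7 peaks, beside Klf2 at 488.5 nt and Txnip at 743.5 nt, far to the left of the median of 18453 nt.

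Outside the 10 members, 56 further genes of the pathway were listed by role. Peaks lay in 6 of them (10.7%), near the background of 8.3%. The 10 members, chosen with their peaks known, are left out of this list. Its share is therefore not the share of the pathway as a whole. Of 11 genes for ligands and their processing, Gdf3, a Nodal-related ligand, had a peak of 83 nt 1140 nt from its end, and Inhbb, the activin beta B subunit, had a peak of 223 nt 638 nt from its end. None of 6 further receptor genes had a peak, among them Tgfbr2 and Acvr2a. The list is too short for a count of 0 to differ from a background of 8.3%, and the receptor genes among the members were chosen with their peaks known, so the 2 lists are not compared. Of 7 genes for SMADs and their partners, Trim33, which codes for a chromatin reader that binds SMAD complexes, had a peak of 73 nt 1388 nt from its end, while Smad2, Smad3, Smad4 and Foxh1 had none.

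Of 15 further inhibitors, Tgif1, a co-repressor of SMAD complexes, had peaks. Its 4 peaks, 42 to 98 nt wide, lay 181.5 to 676 nt from the downstream end. The secreted antagonist gene Cer1 and the ubiquitin ligase genes Smurf1 and Smurf2 had none, and neither had any of 4 target genes. In the BMP branch, 2 of 13 genes had peaks: Bmpr1a, a type I BMP receptor, 1 at 36788 nt from its end, and Smad1, the SMAD of that branch, 2 at 31830.5 and 54594 nt. Within 2000 nt of the end thus lay 7 of 7 peaks of the Nodal, activin and TGF-beta lists and 0 of 3 in the BMP branch, where the background was 35.9%. The 7 peaks came from 4 genes, with 4 of them in Tgif1 alone, and the 3 from 2 genes. Gene length moves with this split: Gdf3, Inhbb and Tgif1 span 4685, 6786 and 9328 nt, and Smad1 and Bmpr1a 61034 and 92276 nt, with Trim33, at 79478 nt, the exception. Its part in the split was not tested. The members, also of the Nodal and TGF-beta branch, were not all near the end. Within 2000 nt lay 13 of their 22 peaks, or 6 of 15 without Lefty1.

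**Figure D5:**
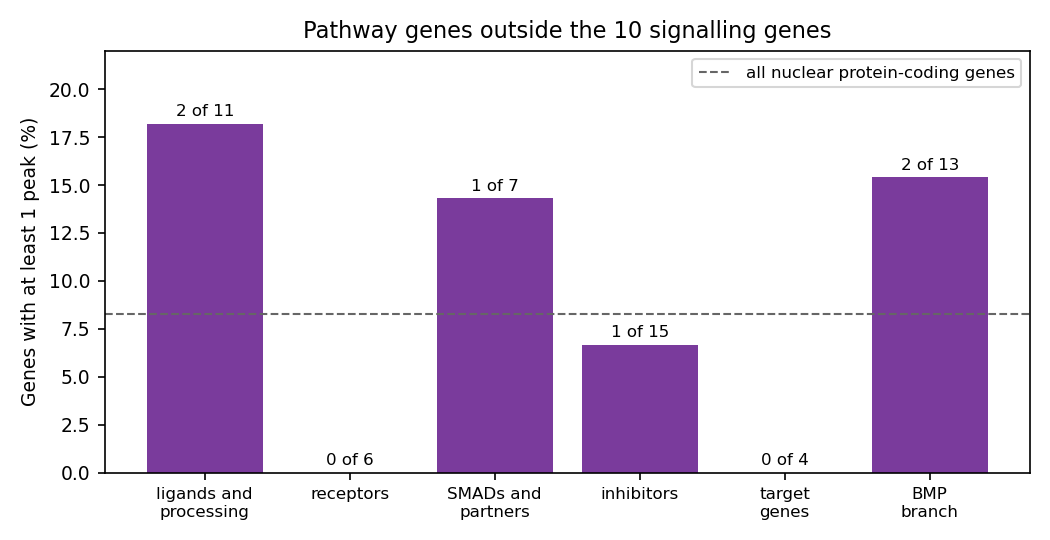
Percent of listed pathway genes with at least 1 peak, by role, for the 56 genes outside the 10 members, with the number of genes above each bar and the 8.3% of all nuclear protein-coding genes as a dashed line. Each bar rests on 0 to 2 genes with a peak.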

How the data were processed

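RNA bound to Spy3-AGO2 was pulled down on SpyCatcher3 resin and cut from a gel, per the labels' protocols. Tools named, without roles, in the submitters' processing notes are STAR 2.5.2a and Bowtie2 2.4.2, cutadapt 2.10 and UMI-tools, and deepTools 3.1.3 and DESeq2 1.36.0, with the build mm10. The sources used here state no peak caller, threshold or pooling of replicates. The deposited peak list gives start, end and strand and no other measurement, since its score column was 0 for all 3292 peaks. The authors deposited raw counts per mature miRNA; a row naming no miRNA held 0 counts.

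Peaks were assigned by midpoint, irrespective of strand, to spans of RefSeq GRCm38.p6, with coordinates counted from 1. Distances run from the midpoint to the gene end downstream on the peak strand, and like spacings they count introns. Other genes means peaks in exactly 1 nuclear protein-coding gene. Seed families join miRNAs with the same bases 2 to 8 in RefSeq, which named 1679 of 1978 miRNAs, holding 92.6% and 91.9% of the counts, so families may lack members. Of 23 planned families, 19 had a sequence and those linked to the pathway are reported. Matches of seeds to peaks were not run, because no genome was used. Assignment was tested on 500 simulated peaks. Members and lists were chosen with earlier results of these data known. Names cover all members, listed pathway genes with a peak and the 5 genes nearest to Lefty1 in peak extent. Genes with 0 peaks were named after their values were seen. Python 3.11.15, numpy 2.4.6, pandas 2.3.3, scipy 1.17.1 and matplotlib 3.10.9 were used.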

Additional observations from a re-analysis of the deposited data

How the results depend on the processing

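Of 47 recomputed values, 40 lay within 1.5 times the value reported. Counting peaks by any overlap changed no value, and extending spans by 5000 nt changed only the pathway genes with a peak, from 6 to 7. The tally therefore says little about stability. Merging peaks under 50 nt apart took 6 peaks from Lefty1 and 1 from Ski, which left 9 inhibitor peaks and a median spacing of 1832.5 nt. Merging was chosen for distance after seeing the data and gave a median of 2001.5 nt, with 46.7% of member peaks within 2000 nt of the end. Leaving out Lefty1 also gave 9 inhibitor peaks, with a median distance of 2193.5 nt and a median spacing of 1546.25 nt, so the medians of distance and spacing rest on this gene. With peaks of at least 45 nt the median spacing was 144 nt, and Tgfbr1 lost its only peak, which left 9 members. A window of 5000 nt held 86.4% of member peaks and one of 1000 nt 45.5%. Of the peaks in other genes, about 54% lay within 4977.8 nt of the end and about 24% within 1046.6 nt. All 7 Lefty1 peaks lie in both windows. The share of the miR-291a-3p seed family was 7.79% with miR-290a-5p left out of the total, and 5.36% to 6.51% with either replicate left out. Seed matches in peaks were not run. No paired analysis was possible because the peak list has no values per replicate and the miRNA libraries form 1 group. The unknown reads behind each peak limit what a count of peaks can show.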

Other observations

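The peak of Nodal ended on the last annotated base of the gene, which 5 of 3070 peaks in exactly 1 nuclear protein-coding gene did. The last peak of Lefty1 ended 2 nt before it, and 13 of the 3070 peaks had an edge at most 2 nt from the annotated end. The shortest Lefty1 peak, at 18 nt the fourth of the 7, was among 18 peaks of at most 18 nt in the list (0.547%). It lay inside the array, with gaps of 27 and 45 nt to its neighbours.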
